A study of Mus musculus with 31 samples.

Results

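Taste receptor genes were read in the distal colon of mice with chemically induced colorectal cancer (CRC), as all array probes whose gene name was Tas1r or Tas2r and a number. The choice used gene names and no measured value, and no filter on dim spots was applied. It gave 39 probes of 38 genes, 3 Tas1r and 35 Tas2r, of 56605 probes with 37074 gene names, and every gene has 1 probe except Tas1r2 with 2. All mice were BALB/c and received azoxymethane (AOM), a colon carcinogen, and dextran sodium sulphate (DSS), an irritant that damages the colonic epithelium, so no group shows an untreated colon. The 4 CRC groups were given vehicle (water) by gavage, and the 4 CRC + E171 groups were given E171, a food-grade titanium dioxide, at 5 mg/kg bw/day, for 2, 7, 14 or 21 days. Each group held 4 arrays, 2 of males and 2 of females, except CRC at 21 days with 3 (1 male and 2 females), and each array held the RNA of 1 mouse, 31 in all. The question was which taste receptors could be measured in this tissue and whether their levels differed between CRC + E171 and CRC on any day.

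Taste receptors are G-protein-coupled receptors of the taste buds. Tas1r3 pairs with Tas1r1 to form the receptor for amino acids (umami) and with Tas1r2 to form the receptor for sugars (sweet), and each Tas2r is a bitter receptor with a coding region in a single exon. Inside the taste cell both families signal through the G protein subunit gustducin (Gnat3), phospholipase C beta 2 (Plcb2) and the cation channel Trpm5. In the gut, parts of this pathway are known from tuft cells, rare chemosensory cells of the epithelium that depend on the transcription factor Pou2f3, and from hormone-producing enteroendocrine cells.

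A value is the log2 of the spot's processed signal relative to the 75th percentile of its array, so -2 is 4 times and -8 is 256 times below that percentile. Across arrays this percentile ranged from 1717 to 6536 signal units, and 65.8 to 77.9% of all probes were well above background by the scanner software's flag. Negative control spots, 308 per array, had a median of -9.34 to -7.79 depending on the array. The precision is limited by the number of arrays. In pieces of tissue, fewer cells of a type and less RNA per cell cannot be told apart.

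The array labelled male 2 of CRC 14 days went against its label. Its Xist value was -1.60, within the -2.34 to -0.70 of the 16 arrays labelled female and apart from the -8.51 to -6.53 of the 14 other arrays labelled male. The main 14-day results are given with and without it. The arrays lay on 8 slides scanned on 3 days. No slide held both groups of 1 day, and all CRC arrays lay in slide column 2 and all CRC + E171 arrays in slide column 4, so group and column cannot be told apart. The tissue mix also differed: the summed level of 6 epithelial genes lay between 289 and 513 (multiples of the 75th percentile) in 7 groups but between 35.4 and 422 in CRC at 7 days, and genes of pancreatic acinar, squamous and skeletal muscle cells were high on some arrays.

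The probes below belong to the bitter receptors on which the results turn. Each is the 60-base probe sequence of the array, written 5′ to 3′ as the strand of the gene, with mm9 coordinates. Of the 35 Tas2r probes, all lay within the RefSeq gene model and 11 ended on the last base of it; there the capitals mark the stop codon.
Tas2r104, chr6:131634867-131634926, minus strand: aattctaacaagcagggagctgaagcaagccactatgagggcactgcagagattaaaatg
Tas2r109, chr6:132930033-132930092, minus strand: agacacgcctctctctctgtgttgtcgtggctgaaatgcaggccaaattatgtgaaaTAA
Tas2r113, chr6:132843899-132843958, plus strand: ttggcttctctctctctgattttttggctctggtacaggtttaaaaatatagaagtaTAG
Tas2r131, chr6:132906930-132906989, minus strand: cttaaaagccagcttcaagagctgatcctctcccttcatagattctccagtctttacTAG
Tas2r118, chr6:23919457-23919516, minus strand: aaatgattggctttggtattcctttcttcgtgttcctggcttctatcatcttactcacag
Tas2r137, chr6:40442149-40442208, plus strand: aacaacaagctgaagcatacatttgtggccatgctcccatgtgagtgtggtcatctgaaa
Tas2r143, chr6:42351046-42351105, plus strand: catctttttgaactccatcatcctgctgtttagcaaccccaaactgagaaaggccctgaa
Tas2r123, chr6:132797940-132797999, plus strand: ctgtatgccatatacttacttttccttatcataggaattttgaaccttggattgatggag

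The bitter receptors are near relatives, but their probes were distinct. The longest run of bases that any of the 741 pairs of taste receptor probes had in common was 11, between Tas2r115 and Tas2r123, and no other probe of the array held 20 bases in a row of any of them. The Tas2r genes lie in groups. A stretch of 1.43 Mb of chromosome 6, from base 131579917 to 133005233, held 24 of the probes, among them Tas2r104, Tas2r109, Tas2r113, Tas2r123 and Tas2r131. A further 9, among them Tas2r118, Tas2r137 and Tas2r143, lay between 23919457 and 42385411 of the same chromosome. Tas2r134 lay on chromosome 2, Tas2r119 on chromosome 15 and the 4 Tas1r probes on chromosome 4.

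Most taste receptors were not well above background in this tissue. Tas1r3, Tas2r109, Tas2r113 and Tas2r143 were well above background on all 31 arrays. With Tas1r1 (29 arrays), Tas2r131 (29), Tas2r118 (28) and 1 of the Tas1r2 probes (20), 8 probes were so on 16 or more arrays, which is 20.5% of the 39 against 70.7% of all probes. Of the rest, 20 passed on 1 to 15 arrays, 13 of them on only 1 or 2, and 11 passed on none: Tas2r102, Tas2r105, Tas2r114, Tas2r116, Tas2r120, Tas2r125, Tas2r129, Tas2r130, Tas2r138, Tas2r139 and Tas2r144. Of all 1209 taste receptor spots, 25.8% were well above background, and 52.4% carried a substitute value that the scanner software gives to a spot not above background. A value near -8 therefore says only that the probe was not above background. By the software's weaker flag (positive and significant), 19 probes in place of 8 were detected on 16 or more arrays.

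The other large families of chemosensory receptors were similarly dim. The share on 16 or more arrays was 26.3% of the probes of 1104 olfactory receptor genes (Olfr), 19.3% of those of 166 Vmn1r genes and 14.3% of those of 94 Vmn2r genes, both vomeronasal receptors. Detection can also be set beside position and base content. Of the 24 probes in the 1.43 Mb stretch 3 were on 16 or more arrays and 8 on none, and of the 9 probes in the other group on chromosome 6 these numbers were 2 and 3. The median GC content was 45% for the 8 probes detected on 16 or more arrays and 41.7% for the others, as for all probes. These are descriptions with no test.

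Detection by group ran from 5 to 14 taste receptor probes per array, with a median of 10. In the CRC groups of 2, 7, 14 and 21 days, 6, 7, 5 and 7 probes were well above background on every array of the group, and in the CRC + E171 groups 9, 7, 5 and 6. CRC + E171 at 2 days had the highest share of spots, 32.7%, and CRC + E171 at 14 days the lowest, 20.5%. In CRC + E171 at 2 days, Tas1r2 and Tas2r140 passed on all 4 arrays where they passed on 2 of 4 in CRC at 2 days. Tas2r103 passed on 3 of 4 arrays of CRC at 14 days and on 0 of 4 of CRC + E171 at 14 days.

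**Figure D1:**
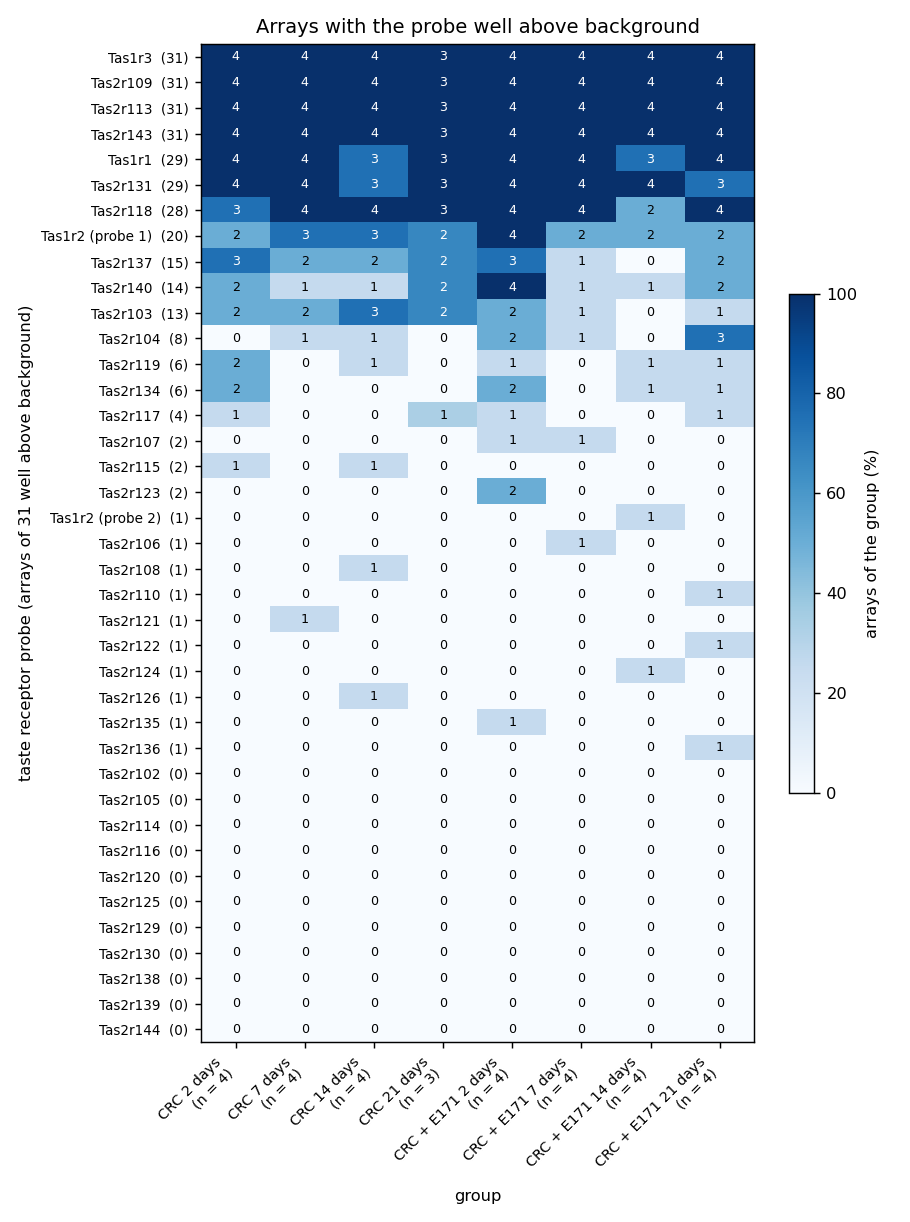
Number of arrays of each group (columns, with the group size n) on which each of the 39 taste receptor probes (rows, with the number of 31 arrays in brackets) was well above background; the shade is the percent of the group's arrays. 4 probes passed on all 31 arrays, 11 on none, and Tas2r104 passed on 3 of 4 arrays of CRC + E171 at 21 days and 0 of 3 of CRC at 21 days. Tas1r2 probe 1 is A_51_P277756 and probe 2 is A_55_P2744042.

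Day by day, few taste receptors passed the study's thresholds, a fold change of 1.5 with an unadjusted p under 0.05, and none passed with an adjusted p. The study writes this fold change on the log2 scale, and read so, fewer passed at 7, 14 and 21 days, as given in the last section. At 2 days 3 probes (7.69%) passed upward beside 2.81% of all probes, and 0 downward beside 0.366%. At 7 days 1 (2.56%) passed upward beside 6.49%, and 1 downward beside 4.01%. At 14 days 3 (7.69%) passed upward beside 3.76% and 3 downward beside 2.63%. At 21 days 4 (10.3%) passed upward beside 2.08%, and 0 downward beside 2.14%. In the mean over the 4 days 1 passed upward beside 1.24% and 0 downward beside 0.97%. Of the 11 upward results of the single days, 7 were against a CRC group with 0 arrays well above background, and 2 of the 4 downward results had a CRC + E171 group with 0 such arrays, so these rest on values at background. These shares rest on 0 to 4 probes and lie on both sides of the background. With limma's adjusted p, 0 taste receptors passed on any day or in the mean over days, as did 0% of all probes. At an unadjusted p under 0.05 with no fold change, the numbers were 3, 2, 6 and 4 on the 4 days, beside 3.84, 12.7, 7.33 and 6.17% of all probes, and 4 in the mean, beside 9.3%. Without the array labelled male 2 of CRC at 14 days, 3 taste receptors passed upward on that day beside 2.97% of all probes and 4 downward beside 2.68%, the added one being Tas2r108.

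For the days in order, the log2 difference over the 39 probes had a median of 0.15, -0.09, -0.17 and 0.52, beside 0.07, -0.03, 0.02 and 0.08 over all probes. The median at 14 days was -0.22 when the array labelled male 2 was left out. Over the 12 taste receptor probes that passed the study's filter on dim probes, the medians were 0.58, -0.13, -0.66 and 0.14. The sign at 7 and at 14 days also turned with normexp (0.44 and 0.49), another way to correct for background, and when single arrays were left out. At 21 days it turned in the authors' values, which hold 12 of the probes (-0.082). At 21 days 32 of 39 probes were above 0. There the background itself differed. The mean of the negative control spots was -8.15 in CRC + E171 and -8.67 in CRC, a difference of 0.53, and these controls did not overlap between the arrays of the groups (-8.38 to -7.79 against -9.07 to -8.48). The 11 probes that were well above background on no array were all higher in CRC + E171 at 21 days, by a mean of 0.51. The 8 probes on 16 or more arrays had a median difference of -0.08, with 4 of 8 above 0. On the other days the negative controls differed by 0.04, -0.13 and -0.11, and the 11 undetected probes by 0.04, -0.13 and -0.08. Receptors of smell moved alike at 21 days, with medians of 0.45 for Olfr, 0.45 for Vmn1r and 0.44 for Vmn2r.

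Separation of all arrays of a day by group was also most frequent at 21 days. There 15 of the 39 probes (38.5%) were higher on every CRC + E171 array than on every CRC array, beside 10.7% of all probes, and 0 were lower beside 2.67%. Of these 15, 11 were well above background on no array of the day. Tas2r104, Tas2r110, Tas2r122 and Tas2r136 are the 4 that passed on at least 1. At 14 days Tas2r131 was higher (1 probe, beside 3.01%) and Tas2r137 lower (1 probe, beside 2.39%). Without the array labelled male 2, Tas2r131 was higher (beside 4.45% of all probes) and Tas2r137, Tas2r143 and the first Tas1r2 probe were lower (beside 3.80%). At 7 days 0 probes were higher beside 3.23% and Tas2r137 alone was lower, beside 1.72%. At 2 days 0 probes were higher or lower without overlap, beside 3.67% and 0.917%.

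**Figure D2:**
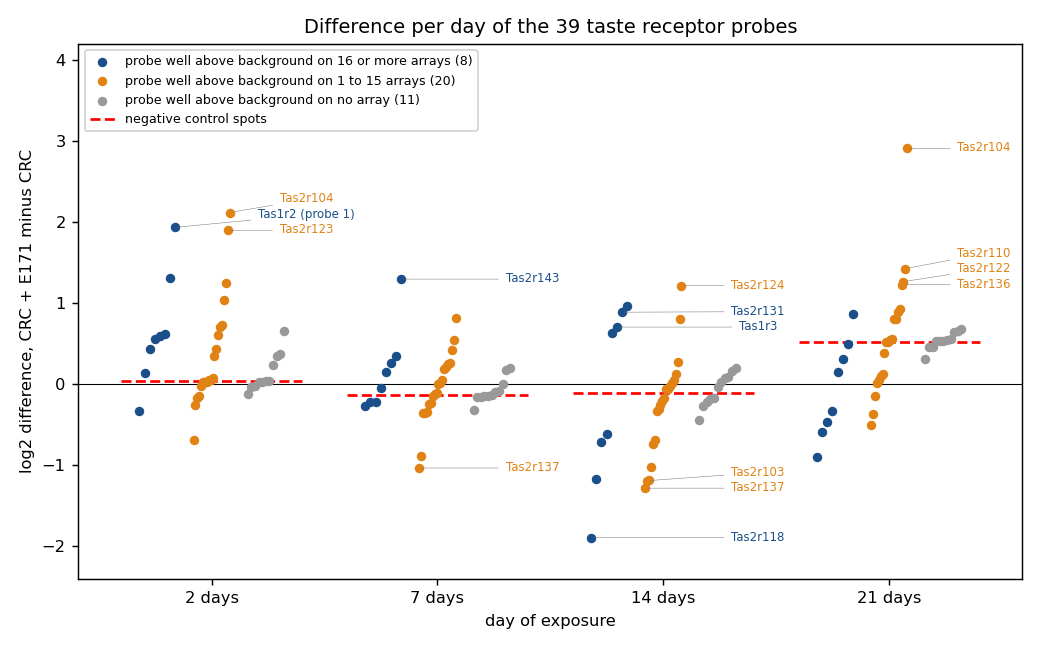
Log2 difference of CRC + E171 minus CRC for each of the 39 taste receptor probes (points) on each day (horizontal axis), coloured by the number of arrays on which the probe was well above background; names mark probes past a fold change of 1.5 and an unadjusted p under 0.05, and the dashed red line is the difference of the negative control spots. For a probe at background in 1 or both groups the point is a difference from background values, not a size. At 21 days the 11 undetected probes lie around the negative controls, at 0.53, and Tas2r104 lies at 2.91.

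Tas1r3, the subunit common to the sweet and the umami receptor, was well above background on every array. Its mean in CRC, for the days in order, was -2.93 ± 0.39, -2.83 ± 0.35, -3.16 ± 0.77 (SD, n = 4 each) and -3.07 ± 0.48 (SD, n = 3). In CRC + E171 it was -2.36 ± 0.51, -2.67 ± 0.23, -2.46 ± 0.52 and -2.75 ± 0.45 (SD, n = 4 each), so the mean was higher on all 4 days while the arrays of the groups overlapped on each. At 14 days the 4 CRC arrays read -3.38, -2.53, -4.15 and -2.58 and the CRC + E171 arrays -2.91, -2.65, -2.57 and -1.70. The difference of 0.71 ± 0.34 (SE) passed the study's thresholds, with a limma p of 0.0466 and an adjusted p of 0.673. It was 0.92 without the array labelled male 2 of CRC. It no longer passed without CRC female 1 (0.38), CRC male 1 (0.63), CRC + E171 female 2 (0.46) or CRC + E171 female 1 (0.74), with normexp (0.58), in the authors' values (0.63), with sex as a covariate or with only the 2 groups fitted (0.71 each). Over the 4 days the difference of Tas1r3 was 0.43 ± 0.17 (SE) with a limma p of 0.0183 and an adjusted p of 0.478, and this is under a fold change of 1.5.

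Tas1r1, the umami subunit, did not differ beyond the spread of its arrays on any day. Its group means lay between -5.46 in CRC + E171 at 14 days and -4.45 in CRC + E171 at 2 days. For Tas1r2, the sweet subunit, the 2 probes behaved differently. A_51_P277756 was well above background on 20 arrays, and A_55_P2744042 on 1 (in CRC + E171 at 14 days). With the first probe the CRC arrays at 2 days read -8.44, -5.12, -8.07 and -5.02 and the CRC + E171 arrays -4.78, -5.18, -4.12 and -4.82. Of the CRC arrays 2 were at background and 2 lay within the range of the exposed arrays, so the groups overlapped. The difference was 1.94 ± 0.71 (SE), with a limma p of 0.0116 and an adjusted p of 1.0. The smallest exact permutation p of any taste receptor at 2 days was 0.0857 (two-sided, 70 regroupings). Without CRC male 1 the difference of Tas1r2 was 1.35 and without female 1 it was 1.47, and with a common floor for dim spots, the highest detection limit of any array, it was 0.62, none of which passed. Within the 1 scan that held both groups it was 0.62. With the other probe, the means at 2 days were -7.89 ± 0.71 and -7.86 ± 0.16 (SD, n = 4 each), both at background.

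**Figure D3:**
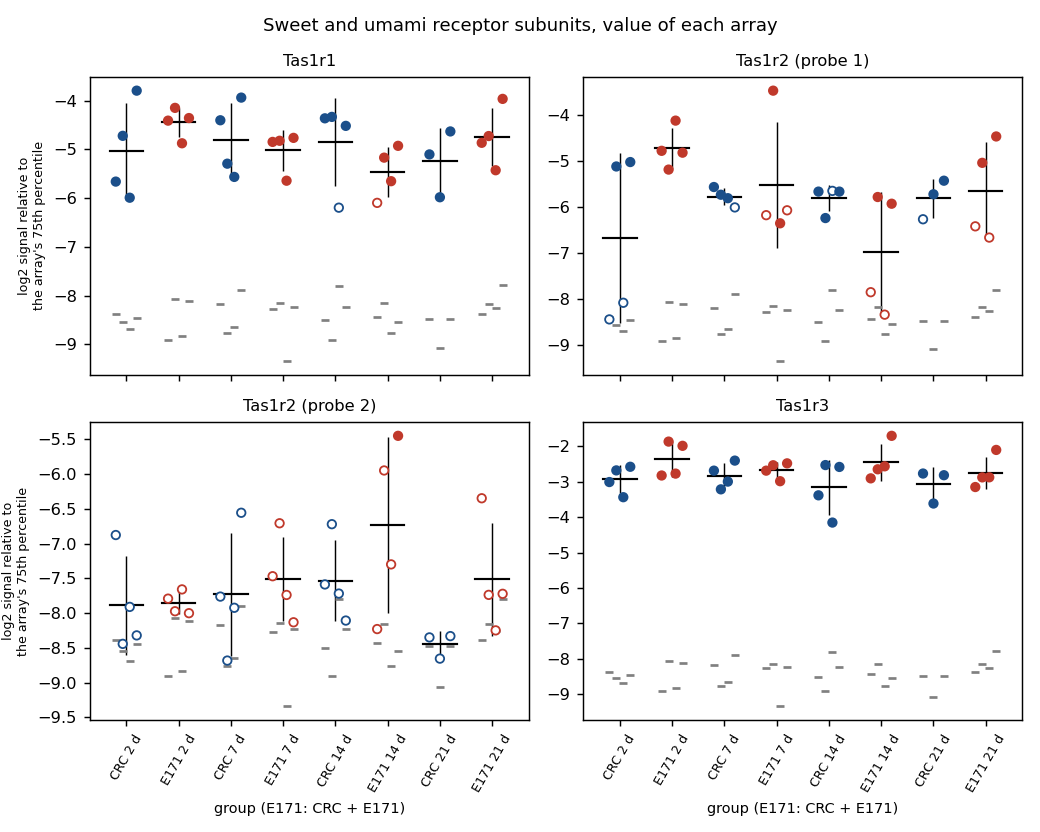
Value of each array (points) for Tas1r1, the 2 probes of Tas1r2 and Tas1r3 in the 8 groups (horizontal axis; blue CRC, red CRC + E171), as log2 signal relative to the array's 75th percentile; filled points are well above background, open points are not, black lines are the mean and SD, and grey dashes are the negative controls of the same arrays. Tas1r3 lies between -4.15 and -1.70 on all arrays, and probe 1 of Tas1r2 has 2 CRC arrays at 2 days at the level of the negative controls.

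Among the bitter receptors, Tas2r109 and Tas2r113 passed the background on every array and showed no difference past the thresholds on any day. Tas2r109 had group means between -4.52 ± 0.17 (SD, n = 4; CRC at 14 days) and -3.56 ± 0.86 (SD, n = 4; CRC + E171 at 2 days). Tas2r113 varied more from mouse to mouse, from -4.47 to -0.31 over the 31 arrays, with group means from -3.23 ± 0.57 (SD, n = 4; CRC at 2 days) to -2.16 ± 0.82 (SD, n = 3; CRC at 21 days). Its highest array was male 1 of CRC at 7 days.

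Tas2r143 was also on every array. At 7 days its CRC arrays read -5.49, -4.52, -2.09 and -1.42 and its CRC + E171 arrays -1.21, -1.62, -2.57 and -2.93. The 2 males of CRC were thus low, and the 2 females lay among the exposed arrays. The difference was 1.30 ± 0.60 (SE), with a limma p of 0.0412 and an adjusted p of 0.371. The same 2 CRC males were low in the list of 6 epithelial genes, with a median over its genes of -3.47 and -1.70 (log2, relative to the mean of the 31 arrays) where the other 6 arrays of that day lay between 0.06 and 0.37. Their colonocyte genes were at -6.93 and -4.43 and their neutrophil genes at 4.65 and 6.16. At 7 days all 6 epithelial genes and 4 of 6 colonocyte genes passed the thresholds upward in CRC + E171 (beside 6.49% of all probes), and 2 of 6 neutrophil genes downward (beside 4.01%). The part of the tissue mix in the difference of Tas2r143 was not tested. Without CRC male 1 the difference was 0.60, without CRC male 2 it was 0.92, without CRC + E171 male 1 it was 1.01 and without CRC + E171 male 2 it was 1.14, and none of these passed. It was 0.40 with array weights, which did not pass, and it did not pass with quantile normalization (1.26), with scan day as a block (1.30) or with only the 2 groups of the day fitted (1.30). At 14 and at 21 days the mean of Tas2r143 was lower in CRC + E171, short of the thresholds. Without the array labelled male 2 of CRC it was lower at 14 days without overlap. Tas2r143 was also the single taste receptor of 39 (beside 7.74% of all probes) with an unadjusted p under 0.05 in limma's F-test between the CRC days, and 0 passed with an adjusted p, beside 0.00177% of all probes. That number was 0 with the replicate block, with scan day as a block and without CRC 7 days male 1, CRC 2 days male 1 or CRC 2 days male 2, and 2 without CRC 7 days male 2, with array weights and with the common floor.

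**Figure D4:**
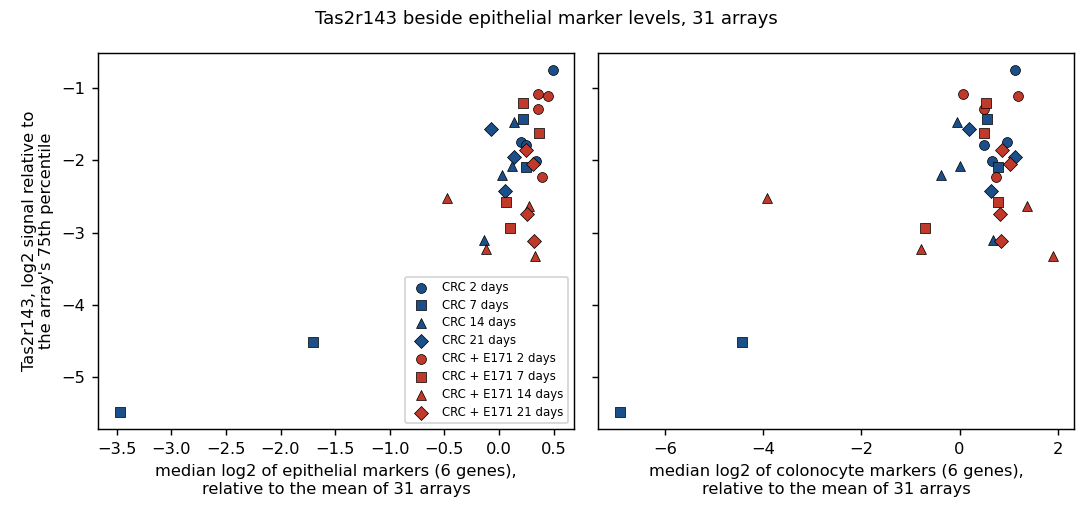
Tas2r143 on each of the 31 arrays (vertical axis, log2 signal relative to the array's 75th percentile) against the median of 6 epithelial (left) and 6 colonocyte (right) marker genes (log2, relative to the mean of the 31 arrays), by group. The 2 CRC arrays of 7 days with Tas2r143 at -5.49 and -4.52 are those lowest in both marker lists.

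Tas2r118 and Tas2r131 changed at 14 days, in opposite directions. Tas2r118 read -3.54, -4.37, -3.23 and -4.51 in CRC and -6.38, -5.12, -7.37 and -4.36 in CRC + E171 at 14 days. Only 2 of the 4 exposed arrays were well above background, and the highest of them lay within the CRC range. Its difference was -1.89 ± 0.68 (SE), with a limma p of 0.0101 and an adjusted p of 0.553. It was -2.04 without the array labelled male 2 of CRC, -1.37 without CRC + E171 female 1 and -0.72 with normexp, neither of which passed, and -1.35 within the 1 scan that held both groups. Tas2r131 read -5.11, -5.46, -5.67 and -5.61 in CRC and -4.84, -4.34, -4.66 and -4.45 in CRC + E171 at 14 days. Every exposed array lay above every CRC array, with an exact permutation p of 0.0286, the smallest that 70 regroupings can give. The difference was 0.89 ± 0.36 (SE), with a limma p of 0.0211 and an adjusted p of 0.589, and 0.89 without the array labelled male 2. Without CRC + E171 male 2 it was 0.81 and with scan day as a block 0.74, neither of which passed. On the other days the difference of Tas2r131 was -0.33, -0.22 and -0.59, and that of Tas2r118 was 1.31, -0.05 and 0.87.

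The tissue pieces of 14 days differed in other ways, and the arrays concerned were not the same for every receptor. Posterior Hox genes (6 genes), whose level marks the position along the gut, were at -5.66 and -4.76 on CRC + E171 females 1 and 2 and between -0.17 and 1.88 on the other 6 arrays, and 4 of the 6 passed downward (beside 2.63% of all probes), among them Hoxb13 (-5.50 ± 2.19, SE). Without the array labelled male 2 of CRC 3 of the 6 did (beside 2.68%). On CRC + E171 male 2, neutrophil genes were at 4.30, squamous genes at 3.79 and colonocyte genes at -3.93. Of the enteroendocrine genes, 3 of 12 passed downward, among them the hormones Insl5 (-4.48 ± 1.41, SE) and Pyy (-2.22 ± 0.80, SE). Without the array labelled male 2 of CRC, 2 of 12 passed downward. The enteroendocrine list as a whole was at 0.97, -2.85, -0.31 and 1.40 on CRC + E171 male 1, male 2, female 1 and female 2. On the CRC arrays it lay between -0.20 and 0.48, and the median of either group was 0.33. The 2 arrays with the lowest Tas2r118 were CRC + E171 male 1 and female 1, of which 1 was low in Hox genes. Tas2r131 was high on all 4 exposed arrays. The part of these tissue differences in the 14-day values was not tested.

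Tas2r137 was lower in CRC + E171 at 7 and at 14 days, with no overlap between the arrays on either day. At 7 days it read -5.81, -5.68, -5.90 and -5.91 in CRC and -6.85, -8.05, -6.28 and -6.25 in CRC + E171. At 14 days it read -6.04, -5.99, -5.84 and -6.08 in CRC and -7.61, -7.42, -7.28 and -6.77 in CRC + E171. The CRC arrays of these days lay close together (SD 0.11 and 0.10), and the exposed arrays were more spread (SD 0.84 and 0.36). The difference was -1.03 ± 0.37 (SE) at 7 days, with a limma p of 0.00957 and an adjusted p of 0.276, and -1.28 ± 0.37 (SE) at 14 days, with a limma p of 0.00183 and an adjusted p of 0.517. The exact permutation p was 0.0286 on both days, the smallest possible. Within the 1 scan of each day that held both groups the difference was -0.71 and -1.15. Without the array labelled male 2 of CRC it was -1.28 at 14 days, and without CRC + E171 male 2 it was -0.64 at 7 days, which no longer passed. With normexp it was 0.0055 at 7 days and -0.07 at 14 days, and with the common floor it was 0 on both days. Neither day passed under these settings, and the direction at 7 days turned with normexp. The tissue of 7 days also differed beyond the cell types given for Tas2r143. Skeletal muscle and squamous genes were at 7.43 and 7.07 on CRC male 1, and acinar genes at 8.90 and 7.57 on CRC male 2 and female 1. Posterior Hox genes were at -4.32 on CRC + E171 female 2 and between -1.23 and 1.86 on the other arrays of that day. The part of these tissue differences in the 7-day values of Tas2r137 was not tested.

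Tas2r137 was close to the limit of detection. On both days 2 of 4 CRC arrays passed the background flag, against 1 and 0 of 4 CRC + E171 arrays. Where no array of a group was well above background, only a bound of the fold can be given. It is the brighter group's mean over the mean of a limit on each array of the dimmer group. That limit is the lowest signal well above background, or the probe's own signal where that is higher. The brighter mean keeps the measured values of its own arrays at background, so the bound is not a strict minimum. By this bound Tas2r137 was 1.28-fold lower in CRC + E171 at 14 days (limma's adjusted p of 0.517). At 2 days the means were -5.90 ± 0.53 in CRC and -5.54 ± 0.57 in CRC + E171 (SD, n = 4 each), and at 21 days -6.21 ± 0.39 (SD, n = 3) and -5.83 ± 0.78 (SD, n = 4), with overlap on both days. In limma's test of whether the difference itself varied between days, Tas2r137 had a p of 0.00443 and an adjusted p of 0.784.

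Tas2r104 passed the thresholds upward at 21 days and at 2 days, each time against a CRC group at background and not with an adjusted p. At 21 days its 3 CRC arrays read -8.57, -9.16 and -8.67, none well above background. Its CRC + E171 arrays read -8.46 and -5.83 in the males and -4.56 and -4.70 in the females, with 3 of 4 well above background. Male 1 was thus at the level of the negative controls, which on that array were higher than on any CRC array of 21 days, and the other 3 exposed mice carried the difference. The fitted difference from these background values was 2.91 ± 0.95 (SE), with a limma p of 0.00509 and an adjusted p of 0.668. The exact permutation p was 0.0571, where 35 regroupings allow 0.0286. By the bound above Tas2r104 was 1.52-fold higher in CRC + E171 (limma's adjusted p of 0.668), with male 1 at background in that mean. Leaving out each array of the day in turn gave 2.47 to 3.77, and the scan that held 2 arrays of each group gave 2.35. It was 1.93 with array weights and 0.50 with the common floor, neither of which passed, and 1.13 with normexp, which did.

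At 2 days Tas2r104 read -8.49, -7.55, -8.48 and -7.89 in CRC, none well above background, and -5.67, -3.69, -8.33 and -6.23 in CRC + E171, with the 2 males well above it. The groups overlapped. The difference was 2.12 ± 0.88 (SE), with a limma p of 0.0235 and an adjusted p of 1.0, and 1.27-fold by the bound. Without CRC + E171 male 2 it was 1.36 and without CRC male 1 it was 1.99, neither of which passed, and within the 1 scan with both groups it was 0.72. It also did not pass with array weights (1.67), with scan day as a block (1.52) or with the common floor (0.48).

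At 7 and 14 days Tas2r104 did not differ past the thresholds. The means at 7 days were -7.76 ± 1.34 in CRC and -7.50 ± 1.11 in CRC + E171 (SD, n = 4 each), with 1 array of each well above background. At 14 days they were -6.79 ± 1.52 in CRC and -7.97 ± 0.77 in CRC + E171 (SD, n = 4 each), and the 1 array well above background was a CRC female, at -4.54. The fitted difference at 14 days, from exposed values at background, was -1.18, and -1.46 without the array labelled male 2, and neither passed. Without that female it was -0.43, with scan day as a block -0.58, with the common floor -0.27 and with normexp -0.11. Single mice with a clear signal thus occurred in CRC as well. Over the 31 arrays Tas2r104 passed on 8, which were 2 CRC arrays and 6 CRC + E171 arrays. Over the 4 days its mean difference was 1.03 ± 0.45 (SE), with a limma p of 0.0306 and an adjusted p of 0.502, the 1 taste receptor past the thresholds in that mean. Without any 1 of CRC + E171 21 days female 1 (0.92) or female 2 (0.93), CRC + E171 2 days male 2 (0.84), CRC + E171 7 days female 2 (0.90), CRC + E171 14 days female 2 (0.93) or CRC 7 days male 2 (0.93) it no longer passed, nor with quantile normalization (0.86), array weights (0.51) or the common floor (0.18). Its difference varied between days with a limma p of 0.0157 and an adjusted p of 0.784.

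Genes of other cell types were read on the same arrays of 21 days. Pancreatic acinar genes (9 genes) were high on 1 of the 4 exposed arrays, female 2, at 10.74, and between -2.04 and -1.62 on the others. Squamous genes (13 genes) were at 2.94 on exposed female 1 and at 5.40 on CRC female 1. Epithelial genes lay between 0.24 and 0.32 on the exposed arrays and between -0.08 and 0.14 on the CRC arrays of 21 days, and tuft cell genes (18 genes) between -0.26 and -0.04 and between -0.01 and 0.20. At 2 days, acinar genes were at 10.50 on exposed female 2, which was not among the arrays with Tas2r104 well above background. The part of these cell types in the values was not tested.

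**Figure D5:**
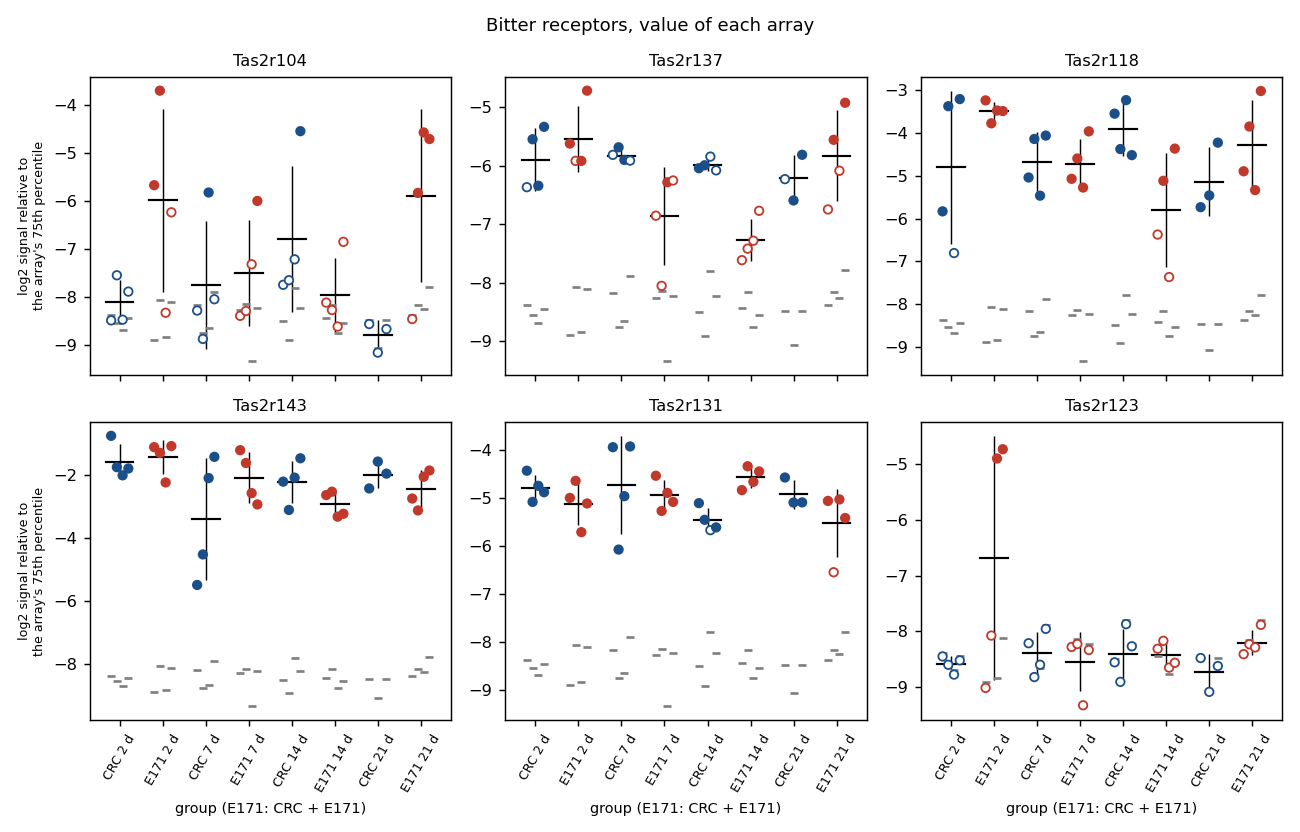
Value of each array (points) for 6 bitter receptors in the 8 groups (horizontal axis; blue CRC, red CRC + E171), as log2 signal relative to the array's 75th percentile; filled points are well above background, open points are not, black lines are the mean and SD, and grey dashes are the negative controls of the same arrays. Tas2r104 is well above background on 3 of 4 exposed arrays at 21 days, Tas2r137 is lower without overlap at 7 and 14 days, and Tas2r123 is high on 2 arrays only.

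The other bitter receptors past the thresholds were seen above background on 1 or 2 exposed arrays each, or on CRC arrays alone. Tas2r123 at 2 days read -8.45, -8.60, -8.77 and -8.52 in CRC and -9.01, -8.08, -4.91 and -4.74 in CRC + E171. Both exposed females were high and both exposed males at background, and no other of the 31 arrays was well above background. It passed with a limma p of 0.00291 and an adjusted p of 1.0. Tas2r124 at 14 days read -8.39, -8.83, -7.65 and -8.13 in CRC and -7.52, -5.37, -8.74 and -6.50 in CRC + E171, and only the exposed male 2 was well above background. It passed with an adjusted limma p of 0.549, also without the array labelled male 2 of CRC, and did not pass without the exposed male 2.

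Tas2r103 at 14 days read -5.75, -6.42, -6.77 and -5.55 in CRC and -7.59, -7.11, -8.14 and -6.41 in CRC + E171. Its difference was -1.19 ± 0.47 (SE), with an adjusted limma p of 0.578, which is 1.17-fold by the bound, and -1.29 without the array labelled male 2. Without CRC + E171 female 1 it was -0.91 and without CRC female 2 it was -1.0, neither of which passed. With normexp it was -0.03 and with a common floor for dim spots -0.02, and neither passed. At 21 days Tas2r110 and Tas2r136 were each well above background on the exposed female 1 alone, at -4.65 and -5.47, and Tas2r122 on the exposed male 1 alone, at -5.62. Each passed with an adjusted limma p of 0.668, and none did without that 1 array or with quantile normalization. Tas2r110 and Tas2r122 also did not pass without CRC female 1, nor Tas2r110 with normexp. With only the 2 groups of the day fitted, or with the common floor, none of Tas2r110, Tas2r122, Tas2r123, Tas2r124 and Tas2r136 passed. For these 5 genes the CRC group had 0 arrays well above background and the bound of the fold was under 1, so no size is given.

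Single bright arrays were common among the dim probes. Tas2r115 reached -3.15 on CRC 14 days female 1, Tas2r106 reached -4.49 on CRC + E171 7 days female 2, Tas2r108 reached -4.61 on CRC 14 days female 2 and Tas2r121 reached -5.40 on CRC 7 days female 1, against medians over the 31 arrays of -8.24, -8.48, -8.22 and -8.29. Of the 10 probes well above background on exactly 1 array, 3 were so on 1 of the 15 CRC arrays and 7 on 1 of the 16 CRC + E171 arrays, which is given with no test. Of the probes detected on an intermediate number of arrays, Tas2r140 (14 arrays), Tas2r119 (6), Tas2r134 (6) and Tas2r117 (4) passed the thresholds on no day.

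Over the 8 groups, 3 of the 39 probes had an unadjusted p under 0.05 in limma's F-test, beside 11.9% of all probes, and 0 had an adjusted p under 0.05, beside 0.00707%. They were Tas2r137 (p of 0.00100, adjusted p of 0.216), Tas2r104 (adjusted p of 0.395) and Tas2r123 (adjusted p of 0.410). The number was 7 with the replicate block, and 1 without any of CRC 2 days male 1, CRC + E171 2 days female 2, the 3 CRC arrays of 21 days, or CRC + E171 21 days male 2 or female 2. For the difference between days 5 probes had an unadjusted p under 0.05, beside 6.09% of all probes, and 0 an adjusted p under 0.05, beside 0% of all probes. The 5 became 3 without any of CRC 2 days male 1 or female 1 or CRC 14 days female 1 or female 2.

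The genes downstream of the receptors were better measured than the receptors. Of 22 genes of taste transduction 21 were on the array, and 12 of these were well above background on all arrays by at least 1 probe and 17 on 16 or more. Plcb2 and the channels Trpm4 and Trpm5 were among the 17. Gnat3, the G protein subunit gustducin, was well above background on 3 arrays only. Of the 38 probes of these genes, 2 (5.26%) passed the thresholds upward and 0 downward at 2 days, 6 (15.8%) and 2 (5.26%) at 7 days, 3 (7.89%) and 3 at 14 days, and 1 (2.63%) and 1 at 21 days, beside the shares of all probes given above. The medians over the probes were 0.18, 0.08, 0.05 and 0.01. None passed with an adjusted p. Without the array labelled male 2 of CRC, 2 passed upward (beside 2.97% of all probes) and 5 downward (beside 2.68%) at 14 days, and 1 upward at 2 days, since the groups share 1 estimate of the spread.

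Among them, Trpm4, a calcium-activated cation channel, was up-regulated with both of its probes at 7 days (1.14 ± 0.44 and 1.64 ± 0.47, SE) and at 14 days (1.05 ± 0.44 and 1.15 ± 0.47, SE). Otop1, the proton channel of sour taste, was down-regulated at 14 days with both probes (-1.26 ± 0.60 and -1.23 ± 0.55, SE). P2rx3, a receptor for ATP on taste nerves, was up-regulated at 2 days with 2 of 3 probes (0.84 ± 0.37 and 1.5 ± 0.72, SE), while the third, also on all 31 arrays, did not pass (0.11 ± 0.31, SE). Adcy6 was up-regulated with 1 probe (1.18 ± 0.41, SE; the other was at 0.76 ± 0.45 and did not pass) and Adcy4 down-regulated (-1.12 ± 0.39, SE) at 7 days; both are adenylate cyclases. When the array labelled male 2 was left out, both Trpm4 probes (1.05 and 1.15) and both Otop1 probes (-1.58 and -1.30) still passed at 14 days. For Trpm5 the probe on 27 arrays differed by 0.30 ± 0.59 (SE) at 14 days, while the other probe was well above background on 3 of the 31 arrays and is among those that passed upward at 14 days, with 1 of 4 CRC + E171 and 0 of 4 CRC arrays above the background. It did not pass without the array labelled male 2, and no size is given. At 7 days Otop1 was down-regulated with 1 of these probes (-1.45 ± 0.60, SE) and not with the other (-0.59 ± 0.55, SE). At 21 days the G protein subunits Gnb1, with 1 probe (0.63 ± 0.26, SE), and Gnb3 (-0.82 ± 0.30, SE) passed, while the other Gnb1 probe, on all 31 arrays as well, was at -0.07 ± 0.17 (SE) and did not. For Plcb2, 1 of 5 probes passed, downward at 14 days (-1.09 ± 0.45, SE). Gnat3 passed at 7 days with 1 of 4 CRC + E171 arrays and 0 of 4 CRC arrays above the background, so no size is given. At 7 days the epithelial and colonocyte genes were low and the neutrophil genes high on the 2 CRC males, as given above. Arrays of that day also differed in other cell types and in Hox genes, as given for Tas2r137. The part of these tissue differences in the 7-day values of Trpm4, Adcy6, Adcy4, Otop1 and Gnat3 was not tested. The adjusted limma p of the genes in this paragraph ranged from 0.267 to 1.0.

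Tuft cell genes (37 probes of 18 genes) passed upward with 1 probe (2.70%, beside 2.81% of all probes) and downward with 1 (2.70%, beside 0.366%) at 2 days. At 7 days 1 passed upward (2.70%, beside 6.49%) and 5 downward (13.5%, beside 4.01%). At 14 days these were 1 (2.70%, beside 3.76%) and 3 (8.11%, beside 2.63%), at 21 days 0 and 0 (beside 2.08 and 2.14%), and none passed with an adjusted p. Without the array labelled male 2 of CRC at 14 days, 0 passed upward and 2 downward at 14 days and 1 upward and 3 downward at 7 days. With all arrays the upward shares lay below those of all probes, and the downward ones rest on 0 to 5 probes. Pou2f3 was up-regulated at 2 days with 1 probe (0.80 ± 0.36, SE) and not with the other (0.04 ± 0.54, SE). At 14 days the other Pou2f3 probe passed (1.16 ± 0.54, SE), and it did not without the array labelled male 2 of CRC (1.11). Il17rb, a receptor of the cytokine interleukin 25, was down-regulated at 14 days with 2 probes (-0.72 ± 0.24 and -0.62 ± 0.25, SE), and the other probe, well above background on 3 arrays only, did not pass. The first of these also passed without the array labelled male 2 (-0.67), and the second did not (-0.50).

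Some tuft cell probes that passed were at background in a group, so no size is given for them. For Chat, the enzyme that makes acetylcholine, 1 of 6 probes passed downward at 2 days, with 0 of 4 CRC + E171 and 1 of 4 CRC arrays well above background, and another at 14 days, with 0 of 4 and 4 of 4, also without the array labelled male 2. For Dclk1 2 of 5 probes passed downward at 7 days, 1 with 0 of 4 and 1 of 4, and 1 that was well above background on all 31 arrays (-0.83 ± 0.40, SE), while the other 2 probes on all 31 arrays did not pass (-0.13 ± 0.32 and -0.37 ± 0.34, SE). At 7 days Alox5ap, a leukotriene synthesis gene that neutrophils also express, was down-regulated with 2 probes (-1.81 ± 0.48 and -1.56 ± 0.57, SE). Alox5 was down-regulated as well (-0.98 ± 0.28, SE). Hpgds, a prostaglandin D synthase, was up-regulated with 1 probe (0.66 ± 0.30, SE) and not with the other (0.12 ± 0.33, SE), both on all 31 arrays.

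Receptors for other nutrients (13 probes of 11 genes) passed with 2 probes upward (15.4%, beside 6.49% of all probes) and 1 downward (7.69%, beside 4.01%) at 7 days. At 14 days 2 passed in each direction (15.4%, beside 3.76 and 2.63%), and at 2 and 21 days 0. With 13 probes, 1 or 2 of them make up these shares. Ffar2 and Ffar4, receptors for short-chain and long-chain fatty acids, were up-regulated at 7 days (2.06 ± 0.84 and 1.18 ± 0.53, SE) and Gpr84 was down-regulated (-2.44 ± 1.13, SE). On the same day 6 of 12 enteroendocrine genes passed upward, with the 6 of 6 epithelial and 4 of 6 colonocyte genes given above, and neutrophil genes were high on the 2 CRC males. The part of these cell types in the 7-day values of Alox5ap, Alox5, Hpgds, Dclk1 and the nutrient receptors was not tested. Nor was that of the other tissue differences of 7 days given for Tas2r137. At 14 days Gpr119 and Gpbar1, receptors for lipids and for bile acids, were down-regulated (-1.47 ± 0.65 and -0.70 ± 0.30, SE), also without the array labelled male 2 (-1.55 and -0.71). The probes of Casr, the calcium-sensing receptor, passed upward at 14 days with 2 and 0 of 4 CRC + E171 arrays and 0 of 4 CRC arrays well above background, so no size is given, and neither passed without the array labelled male 2.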

How the data were processed

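RNA of the distal colon was hybridised to one-colour Agilent arrays by the authors, who extracted the spots with Agilent Feature Extraction 10.7.3.1, per the labels and file headers. The deposited processed signal of each spot is an intensity that was background-subtracted and detrended, with a substitute for spots not above background, with no normalization across the arrays. A log2 matrix was also deposited by the authors, who had filtered, imputed and normalized it; it was used as an alternative and holds 12 of the 39 taste receptor probes. Probe positions are mm9, per the file headers. Gene names of all 38 genes were found in the RefSeq table (GRCm38.p6), which gave names and gene lengths.

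From the intensities, log2 of the processed signal minus log2 of the array's 75th percentile was computed, leaving out control and outlier spots and averaging spots of a probe. All 56605 probes were fitted in 1 limma model over 8 groups (limma 3.58.1, R 4.3.3), with Benjamini-Hochberg adjustment over all probes. A probe was called at a fold change of 1.5 and an unadjusted p under 0.05, the study's thresholds, or at an adjusted p under 0.05. The methods write this fold change on the log2 scale, which was an alternative. Exact two-sided permutation tests regrouped the arrays of a day. Mice are separate animals; p-values measure the spread between them. In data simulated for 7 days over 56605 probes, an adjusted p under 0.05 recovered 98% of changes of -3, 56% of -2, 72% of 2 and 80% of 3 (log2), with 8 false calls.

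Named were the Tas1r genes, Tas2r104 on every day, probes well above background on 16 or more arrays, probes past the thresholds or without overlap on a day, and from each gene list at most 3 genes up and 3 down per day, with Gnat3, Plcb2, Trpm5 and Pou2f3 always. The few other members named as examples were chosen after their values were seen. The members, lists and tests were chosen with earlier results of these data known. Alternatives were quantile normalization, normexp with an offset of 50, the study's filter, a common floor for dim spots, the authors' values, sex as a covariate, a replicate block, slide as a random block, array weights, other fits and leaving out each array. At 21 days the correlation of the deviations of same-numbered arrays was 0.21 to 0.38 in all 3 pairs, over 0.1 in each. The labels state no pairing and same-numbered arrays share a sex label, so these values do not establish pairs. The main fit and the permutation tests used no pairing. Scan day as a block was added after seeing the data.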

Additional observations from a re-analysis of the deposited data

Results flagged for a closer look

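In the 175 groups of 4 arrays examined for 25 named genes, 13 held 1 array apart from the other 3, where chance flags about 1 in 20 groups, 8.75 here. The gap of that array to its nearest neighbour is given as a share of the group's range. Of the 13, 6 were the low value of CRC + E171 7 days female 1, the array with the lowest negative controls (-9.34). They were Tas2r105 (0.897), Tas2r110 (0.898), Tas2r121 (0.927), Tas2r123 (0.903) and Tas2r139 (0.891), none well above background on any array of that group, and Tas1r1 (0.906), which was at -5.64 against -4.85 to -4.77.

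Tas1r1 was also low on CRC 14 days female 1 (0.901), at -6.20 against -4.52 to -4.34, and Tas2r124 on CRC 2 days female 1 (0.925), at background. The first Tas1r2 probe was low on the array labelled CRC 14 days male 2 (0.974), at -6.23 against -5.66 to -5.65, and high on CRC + E171 7 days male 2 (0.902), at -3.47 against -6.35 to -6.07. Tas2r109 was high on CRC + E171 7 days male 1 (0.942), at -2.53 against -4.24 to -4.14. Tas2r104 was high on CRC 14 days female 2 (0.834), at -4.54 against -7.75 to -7.22. Tas2r110 was high on CRC + E171 21 days female 1 (0.842), at -4.65 against -8.46 to -7.86.

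The difference between CRC + E171 and CRC varied between days, by limma's F-test at an unadjusted p under 0.05, for Tas2r137 (p of 0.00443), Tas2r118 (0.0142), Tas2r104 (0.0157), the first Tas1r2 probe (0.0406) and Tas2r131 (0.0417). Each had an adjusted p of 0.784.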

How the results depend on the processing

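The number of taste receptors past the thresholds depended on the setting; the cause was not tested. Over all probes, the share past the thresholds moved too. At 2 days it was 3.18%, and 7.17% with normexp, 1.45% with the floor, 1.86% in the authors' values and 5.05% with the replicate block. At a log2 fold change of 1.5 it was 2.51% at 7 days, 1.43% at 14 days and 0.735% at 21 days. At 7 days it was 10.5%, and 10.7% with quantile normalization, 11.5% with normexp, 8.25% with the floor and 5.67% with only the 2 groups. At 14 days it was 6.39%, and 3.52% with the floor. At 21 days it was 4.22%, and 4.03% with quantile normalization, 3.70% with the filter, 2.08% with the floor and 4.62% in the authors' values. In the mean it was 2.21%, and 2.04%, 2.02%, 0.844% and 2.72% with quantile normalization, normexp, the floor and array weights. Among taste receptors, at 2 days the 3 became 12 with normexp, 0 with a common floor, 1 of 12 in the authors' values and 5 with the replicate block. At 7 days the 2 became 0 at a log2 fold change of 1.5, 1 with quantile normalization, 5 with normexp, 1 with the floor and 1 with only the 2 groups compared. At 14 days the 6 became 1 at a log2 fold change of 1.5 and 3 with the floor. At 21 days the 4 became 1 at a log2 fold change of 1.5, 1 with quantile normalization, 1 of 12 with the study's filter, 0 with the floor and 0 of 12 in the authors' values. In the mean over days the 1 became 0 with quantile normalization, 4 with normexp, 0 with the floor and 0 with array weights. Leaving out 1 array at a time gave 1 to 6 at 2 days, 1 to 3 at 7 days, 3 to 7 at 14 days, 2 to 5 at 21 days and 0 to 3 in the mean, while the share of all probes went from 1.91 to 5.23%, 5.05 to 16.6%, 5.05 to 9.53%, 2.99 to 6.32% and 1.60 to 3.83%. The counts moved most at 2 days without CRC male 1 (1, beside 3.10% of all probes), CRC male 2 (5, beside 3.91%) or CRC female 2 (6, beside 5.23%), at 7 days without CRC + E171 male 1 or male 2 (1 each, beside 8.47 and 10.5%), at 14 days without CRC + E171 female 1 (3, beside 5.13%) and at 21 days without CRC + E171 female 1 or CRC female 1 (2 each, beside 5.71 and 2.99%). In the mean over days the count was 0 without CRC + E171 21 days female 1 or female 2, CRC + E171 14 days female 2, CRC + E171 7 days female 2 or CRC 7 days male 2. The unadjusted F-test counts ranged over all settings from 1 to 14 for the 8 groups, from 0 to 2 for the CRC days and from 1 to 8 for the difference between days. The 14 came with normexp, beside 20.4% of all probes, and the 8 with quantile normalization, beside 7.83%. The 1 for the difference came with normexp, beside 4.01%. For the CRC days, the 2 came beside 7.97% with the floor, 12.7% with array weights and 6.44% without CRC 7 days male 2, and the 0 beside 8.55% with the replicate block, 6.26% with scan day as a block and 4.29 to 7.01% without 1 array. The floor sets all lower values to the highest detection limit of any array (-5.62), which removes dim probes by construction. With an adjusted p the number was 0 under every setting run except normexp in the mean over days, where 28 of 39 passed beside 30% of all probes; normexp moved the median of all probes to between 0.19 and 0.25 on the 4 days. With the software's weaker flag (positive and significant), 19 in place of 8 probes were detected on 16 or more arrays.

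The median difference turned its sign at 7 days with normexp (0.44), without CRC + E171 7 days female 1 (0.15) and without CRC 7 days female 2 (0.08); leaving out arrays gave -0.21 to 0.15. It did so at 14 days with normexp (0.49), with scan day as a block (0.13) and without CRC 14 days female 1 (0.0099), where leaving out arrays gave -0.22 to 0.0099, and at 21 days in the authors' values (-0.082). Tas2r104 at 7 days turned with array weights (-0.52), scan day as a block (-0.31), without CRC 7 days male 2 (-0.12) and without CRC + E171 7 days female 2 (-0.25), the highest without 1 array being 0.90, and Tas2r137 at 7 days with normexp (0.0055). At 14 days the median moved to -0.66 over the 12 probes left by the study's filter, and with the floor it was 0 on each day. Tas2r104 at 21 days was 2.69 with quantile normalization and 3.28 with scan day as a block, and Tas2r137 at 14 days was -1.72 in the authors' values.

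Same-numbered arrays did not all deviate together at 2, 7 and 14 days, where the correlation of their deviations was 0.03 to 0.32, -0.08 to 0.27 and -0.14 to 0.09. There the numbers were taken as names only, and at 21 days the labels state no pairing either. With the replicate block Tas2r104 at 21 days was 2.92 and Tas2r137 at 14 days -1.28, and apart from the count at 2 days and the unadjusted F-test counts (7 for the 8 groups, beside 15.2% of all probes, and 0 for the CRC days) it moved no count of calls by over 1.5 times. Of the 39 probes 31 were not well above background on most arrays, which limits every difference between dim groups to a bound.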
